A study of Mus musculus with 6 samples.

Results

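The regions described here carried histone H3 lysine 4 trimethylation (H3K4me3) in both a pro-T and a pro-B cell line, yet lay away from every transcription start site (TSS) of the GENCODE annotation. They were selected on the measured peaks, by merging the peaks of both lines that overlapped by at least 1 bp, keeping merged regions with a peak of each line, and removing those that touched the 2500 bp on either side of any GENCODE M21 TSS. This left 1279 regions, 5.65% of the 22625 merged regions and 11.7% of the 10951 regions shared by the lines. The other 9672 shared regions touched a TSS window and are called shared promoter regions below. Distal regions with a peak in 1 line numbered 2322 in the pro-T line and 4452 in the pro-B line.

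The pro-T line was Scid.adh.2C2, a tumor-derived T-cell progenitor line from CB17-Prkdc scid mice, whose Prkdc mutation blocks V(D)J recombination. The pro-B line, whose name stands in the plot legends, was a B-cell progenitor line transformed with Abelson virus. Neither line received a treatment, each is 1 line with its own transformation history, and lineage and line cannot be told apart. Each line had 2 H3K4me3 ChIP-seq libraries and 1 input library, which the authors combined into 1 peak list per line (15513 peaks for the pro-T line and 19604 for the pro-B line). Every peak therefore has 1 value per line and no replicate spread, so comparisons between the lines are descriptions with no test, and the depth of the libraries is unknown. As a check of the labels, promoters of the 9 T-cell markers listed were marked in 9 of 9 cases in the pro-T line and in 3 of 9 in the pro-B line, promoters of the 9 B-cell markers in 2 of 9 and 9 of 9, none of 7 myeloid promoters was marked in either line and 2 of 6 erythroid promoters were in each.

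H3K4me3 is written by the SET1 and MLL methyltransferase complexes on nucleosomes beside active start sites of RNA polymerase II, and it is strongest where promoters overlap CpG islands, short stretches rich in unmethylated CpG. Distal regulatory elements (DREs) such as enhancers usually carry H3K4me1 and little H3K4me3. A distal H3K4me3 peak can therefore mark an active enhancer, a start site missing from the annotation, or a gene transcribed by another polymerase, such as the tRNA genes that RNA polymerase III reads from promoter elements inside the gene (the A box and the B box).

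The distal shared regions fell into 4 groups by what lay in or beside them, and the sequences that distinguish these groups are shown first. Of the 1279 regions, 65 (5.08%) held a tRNA gene of the RefSeq annotation, which the GENCODE TSS list does not contain. A further 181 (14.2%) lay within 2500 bp of a RefSeq TSS with no GENCODE TSS in that range, 427 (33.4%) had neither but met the criteria of a CpG island at the summit, and 606 (47.4%) had none of these.

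The tRNA genes below lie in the distal shared regions with a tRNA gene that ranked highest in both lists. They are printed 5′ to 3′ on the transcribed strand from GRCm38.p6, with matches to the B-box letters GTTCNANNC in capitals. The last one, a methionine tRNA gene, is shown because it held no match.
tRNA-Gly GCC, n-TGgcc7, chr13:21710580-21710650, + strand: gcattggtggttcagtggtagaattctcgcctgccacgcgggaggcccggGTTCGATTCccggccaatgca
tRNA-Pro TGG, n-TPtgg8, chr7:98815415-98815486, + strand: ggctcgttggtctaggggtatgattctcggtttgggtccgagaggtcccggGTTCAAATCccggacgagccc
tRNA-Pro AGG, n-TPagg7, chr7:98815676-98815747, - strand: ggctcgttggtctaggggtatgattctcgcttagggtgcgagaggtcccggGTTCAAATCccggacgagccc
tRNA-Asp GTC, n-TDgtc9, chr11:69040984-69041055, + strand: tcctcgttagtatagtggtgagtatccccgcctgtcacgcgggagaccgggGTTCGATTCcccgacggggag
tRNA-Arg TCT, n-TRtct1, chr19:12011588-12011673, - strand: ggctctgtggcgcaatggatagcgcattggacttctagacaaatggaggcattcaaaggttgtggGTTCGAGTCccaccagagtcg
tRNA-Met CAT, n-TMcat7, chr13:21710994-21711065, + strand: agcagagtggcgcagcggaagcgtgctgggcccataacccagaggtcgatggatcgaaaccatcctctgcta

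These letters occurred in 96 of the 99 tRNA genes within distal shared regions (97%) and in 371 of all 403 tRNA genes on the assembled chromosomes (92.1%). The search covered both strands in windows of 501 bp at the summits, where the letters occurred in 38.5% of the regions with a tRNA gene and in 18.4% of all distal shared regions. Shared promoter regions held them in 17.7%. The word thus also occurs away from tRNA genes.

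The windows below give 100 bp on either side of the H3K4me3 summit on the + strand of GRCm38.p6, with every CpG in capitals, for 5 distal shared regions named by the nearest protein-coding gene. Klrb1b is the highest-ranking region with a CpG island and no RefSeq TSS or tRNA gene, Zfp869 the highest with a RefSeq TSS, Mcidas the highest with none of these, and Akap13 and Espnl are the most skewed toward the pro-T line and the pro-B line.
Klrb1b, chr6:128838751-128838951: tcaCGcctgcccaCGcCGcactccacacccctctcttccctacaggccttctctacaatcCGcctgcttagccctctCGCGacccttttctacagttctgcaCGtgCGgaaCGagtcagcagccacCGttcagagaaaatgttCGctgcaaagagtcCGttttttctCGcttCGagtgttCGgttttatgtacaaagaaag
Zfp869, chr8:69716667-69716867: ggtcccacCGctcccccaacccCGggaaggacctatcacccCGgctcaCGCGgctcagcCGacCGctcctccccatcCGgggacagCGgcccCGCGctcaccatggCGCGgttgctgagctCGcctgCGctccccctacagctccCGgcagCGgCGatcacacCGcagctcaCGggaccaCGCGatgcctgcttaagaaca
Mcidas, chr13:113013290-113013490: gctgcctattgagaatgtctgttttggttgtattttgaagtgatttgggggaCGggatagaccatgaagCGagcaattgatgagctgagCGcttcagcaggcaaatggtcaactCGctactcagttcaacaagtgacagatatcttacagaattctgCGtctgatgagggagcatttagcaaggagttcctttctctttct
Akap13, chr7:75587541-75587741: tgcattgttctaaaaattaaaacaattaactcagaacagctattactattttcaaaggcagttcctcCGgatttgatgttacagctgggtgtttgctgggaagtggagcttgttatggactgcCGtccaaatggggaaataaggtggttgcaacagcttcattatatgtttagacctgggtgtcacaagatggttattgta
Espnl, chr1:91326044-91326244: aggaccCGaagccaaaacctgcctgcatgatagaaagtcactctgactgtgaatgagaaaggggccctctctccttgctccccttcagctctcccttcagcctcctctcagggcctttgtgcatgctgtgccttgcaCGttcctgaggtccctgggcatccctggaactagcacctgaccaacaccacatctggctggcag

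The window at Zfp869 held 22 CpG dinucleotides and that at Klrb1b 15. The Mcidas window held 5, and the Akap13 and Espnl windows 2 each. CpG dense and CpG poor sequence thus both occurred where H3K4me3 was strong in at least 1 line. Akap13 was weak in the pro-B line, at 4.77-fold over background, and Espnl in the pro-T line, at 5.66-fold.

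Enrichment was lower at distal shared regions than at shared promoters and higher than at distal regions of 1 line. Fold enrichment is the ratio of ChIP signal to the local background that MACS2 gave at a peak, and the highest peak of a region was used. Over the 1279 regions it ran from 3.93 to 45.7 in the pro-T line, with a median of 11.8, and from 4.70 to 35.1 in the pro-B line, with a median of 12.2. Shared promoter regions had medians of 25.7 and 20.7. Distal regions of 1 line had a median of 8.27 in the pro-T line and 9.0 in the pro-B line. The same peak calls defined the classes, and a shared region needed a called peak in each list. The difference from distal regions of 1 line is therefore not independent of the selection.

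In terms of rank, 843 of the distal shared regions (65.9%) lay below the median peak in both lists and 140 (10.9%) above it in both. For shared promoter regions these shares were 12.4% and 63.6%. The highest IDR score of 1000, a capped measure of how well a peak ranked alike in both replicates, was reached in both lists by 1143 regions (89.4%) and by 95.5% of shared promoter regions, among peaks that the authors had already filtered by IDR. The summits of both lines fell within 100 bp of each other in 829 regions (64.8%), and 1172 (91.6%) consisted of 1 peak of each list. Shared promoter regions had similar shares, 61.6% and 86.3%. Median width was 1355 bp, against 2339 bp at shared promoters. Distal regions of the pro-T line alone had a median width of 745.5 bp and those of the pro-B line alone 1004 bp. A shared region spans the peaks of both lists together, so part of its greater width follows from the merging. Within distal shared regions, peaks of the pro-T line covered a median of 985 bp and those of the pro-B line 1201 bp. Counts of features that overlap a region can rise with its width, which was not tested.

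**Figure D1:**
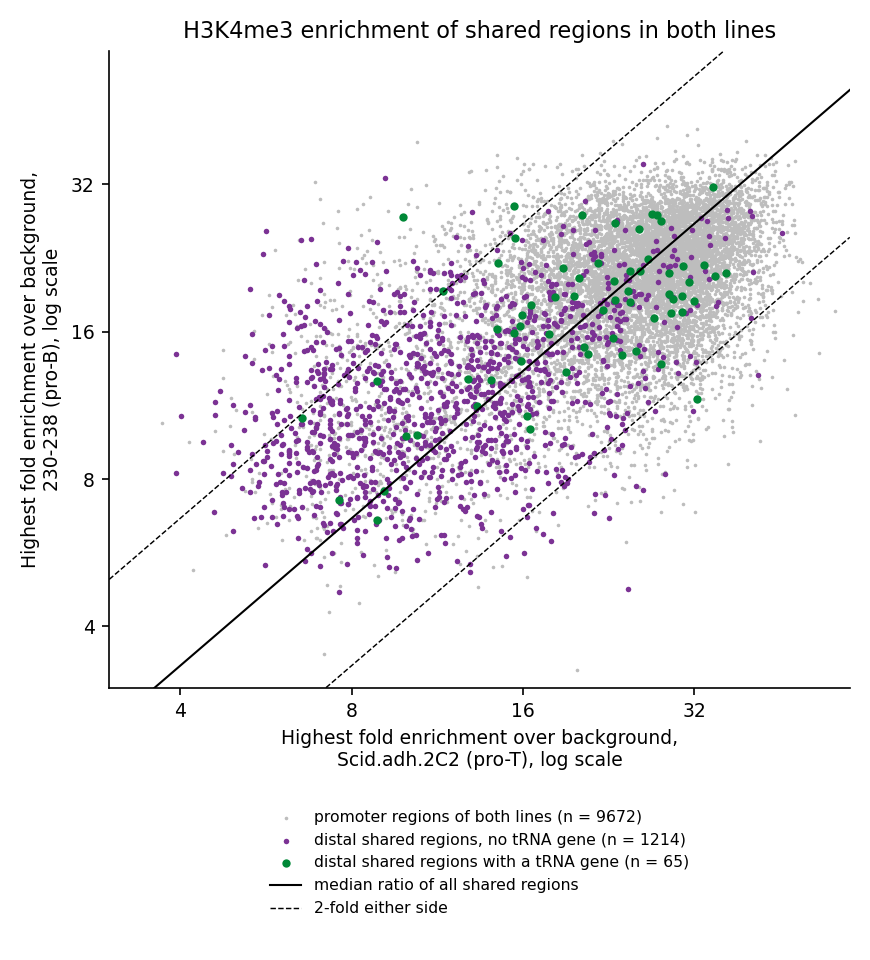
Highest H3K4me3 fold enrichment over background of each shared region in the pro-T line (x axis) and the pro-B line (y axis), both on log scales, for shared promoter regions (grey), distal shared regions (purple) and those with a tRNA gene (green). The solid line is the median ratio of all shared regions and the dashed lines lie 2-fold away. Distal shared regions had medians of 11.8 and 12.2 against 25.7 and 20.7 at shared promoters, and those with a tRNA gene had medians of 21.7 and 18.5.

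The 5 regions that ranked highest in both lists all exceeded the median of shared promoters. The first, chr8:69715315-69717005, lay 4591 bp from the nearest GENCODE TSS, that of the zinc-finger gene Zfp869, and reached 36.6-fold in the pro-T line and 28.3-fold in the pro-B line. RefSeq places a start of Zfp869 inside it. The second, chr6:128835432-128840632 in the natural killer receptor cluster near Klrb1b, had 40.1-fold and 28.2-fold enrichment, and its nearest TSS of any kind was 2539 bp away. No RefSeq start lay within 2500 bp of it, and it met the CpG island criteria with an observed over expected CpG ratio of 0.991 in the 501 bp at its summit.

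The third, chr16:30510019-30512255, was 28654 bp from Tmem44 in intergenic sequence, with 40.4-fold and 27.6-fold enrichment. The fourth, chr16:13436224-13437183, lay in an intron of the noncoding gene Gm15738, 12340 bp from any GENCODE TSS, with 36.7-fold and 27.3-fold, and it held the RefSeq start of Gm41421. The fifth, chr13:21709739-21712101, lay 4042 bp from Hist1h2bl, a histone H2B gene, and held 2 tRNA genes, with 34.5-fold and 31.6-fold enrichment. All 5 met the CpG island criteria.

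Genes for tRNA were more frequent in these regions than in the other classes. The 65 regions with a tRNA gene held 99 of them, 24 regions held 2 or more, and 5 regions held 4. Their share of 5.08% of distal shared regions had a Wilson 95% interval of 4.01 to 6.43. It was 0.345% (0.175 to 0.678) of distal regions in the pro-T line alone, 0.0898% (0.0349 to 0.231) of those in the pro-B line alone and 0.631% (0.491 to 0.809) of shared promoter regions. The intervals did not overlap that of the distal shared regions. They cover counting error only, and neighboring regions are not independent.

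Since regions with a tRNA gene were strongly enriched, the comparison was repeated with distal regions of at least 10-fold enrichment in each line in which they had a peak. A tRNA gene then lay in 57 of 609 distal shared regions (9.36%), in 5 of 755 of the pro-T line alone (0.662%) and in 2 of 1695 of the pro-B line alone (0.118%). Shared regions had to pass this limit in both lists, so it did not match enrichment between the classes.

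Seen from the tRNA genes, 267 of the 403 lay over 2500 bp from any GENCODE TSS. Of these 267, 99 (37.1%) lay in distal shared regions, 21 (7.87%) in shared promoter regions that reached them, 11 (4.12%) in distal regions of the pro-T line alone and 5 (1.87%) in those of the pro-B line alone. The remaining 131 (49.1%) lay in no region. Distal tRNA genes that overlapped a region thus mostly lay in a region with a peak of each line. Genes were counted by overlap with the merged region, so a gene need not lie under a peak of both lines.

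The 99 genes covered 18 of the 20 annotated kinds of tRNA. Leucine tRNA genes were the most frequent with 10 of 25, and phenylalanine tRNA genes, 6 of 7, had the highest share. None of 57 cysteine and none of 10 tyrosine tRNA genes lay in a distal shared region. Over all kinds the share was 24.6% (99 of 403). All 99 lay over 2500 bp from any GENCODE TSS, whereas the totals per kind include genes closer to one. How many genes of each kind lay farther away was not counted, so these shares do not compare the kinds. For 73 of the 99 genes an identical gene sequence occurred elsewhere on the assembled chromosomes. Reads that lie wholly within those 73 genes have more than 1 match in the genome, and their part in the values was not tested.

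The H3K4me3 summits lay outside the tRNA genes, and on which side was not recorded. No summit of either list fell inside one. The genes are short against the width of the regions, and whether reads with several matches affected where summits lay was not tested. The median distance from the summit to the nearest tRNA gene was 255 bp in the pro-T line and 265 bp in the pro-B line. The largest distance was 1150 bp and 1467 bp. Median enrichment of these regions was 21.7 in the pro-T line and 18.5 in the pro-B line, with a median width of 1930 bp, and 46 of 65 (70.8%) met the CpG island criteria. Their midpoints lay outside any annotated gene in 62 of 65 cases.

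Regions with a tRNA gene clustered by the histone genes of chromosome 13, where 30 of the 65 lay between 21158753 and 23507060. Chromosome 13 carries 105 of the 403 annotated tRNA genes, of which 42 lay in distal shared regions. The other 35 regions were spread over 15 chromosomes. The highest-ranking examples outside chromosome 13 were chr7:98814255-98817808, upstream of the Wnt ligand gene Wnt11, with 33.3-fold and 21.9-fold enrichment and 2 proline tRNA genes, and chr11:69038127-69041886 near Ctc1, with 30.5-fold and 21.8-fold and 4 tRNA genes. The region chr19:12009900-12012316, near the olfactory receptor gene Olfr1423, had 28.0-fold and 26.9-fold enrichment and also held 4 tRNA genes. All of these met the CpG island criteria.

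**Figure D2:**
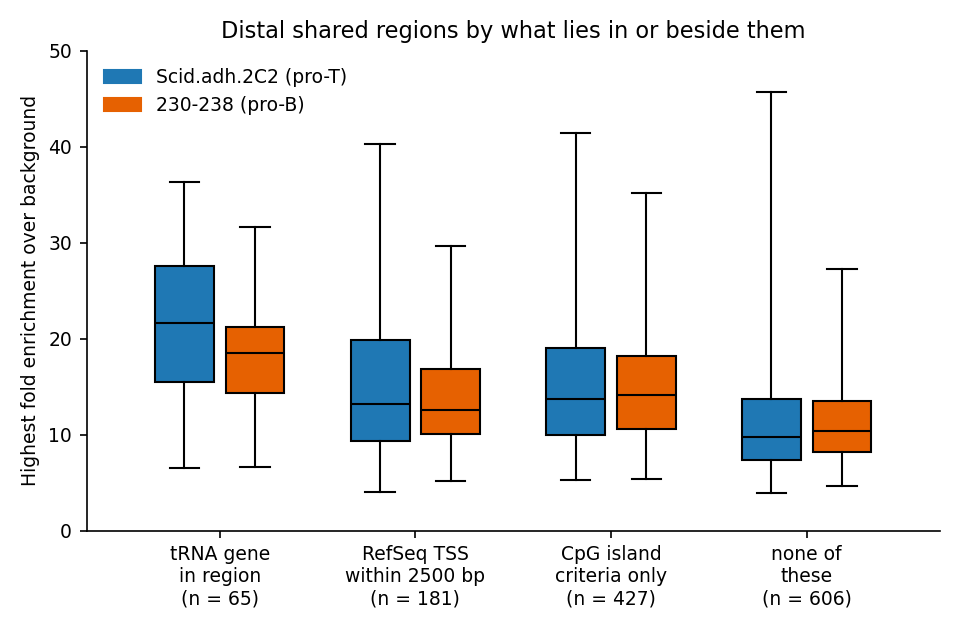
Highest fold enrichment over background in the pro-T line (blue) and the pro-B line (orange) for the 4 groups of distal shared regions. Boxes span the quartiles, lines in the boxes are medians and whiskers reach the lowest and highest region. Regions with a tRNA gene had the highest medians, 21.7 and 18.5, and regions with none of the features the lowest, 9.73 and 10.4.

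Of the 6 longest runs of distal shared regions, 4 held tRNA genes. Regions were joined into runs where gaps did not exceed 20000 bp, which left 976 regions alone, 101 pairs, 15 runs of 3, 6 of 4, 4 of 5 and 2 of 6. One run of 6 spanned 14090 bp at chr13:21158753-21172842 between Olfr1368 and Trim27, a ubiquitin ligase gene, and 5 of its 6 regions held a tRNA gene, with 8 genes in all. Enrichment across it ran from 7.59 to 27.1 in the pro-T line and from 7.26 to 19.4 in the pro-B line.

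Of the 4 runs of 5, the one at chr13:21910209-21941961 near Zfp184 held a tRNA gene in all 5 regions, the one at chr13:23498166-23527486 near Btn2a2 in 4, and the one at chr2:122374597-122381166 near Shf in 2. The run of 5 at chr19:47884483-47910994, in the gene Cfap43 between Gsto2 and Itprip, held none. The second run of 6, at chr10:59895579-59922066 between Dnajb12, a heat-shock co-chaperone gene, and the stress-induced gene Ddit4, also held none. Its regions reached 7.69-fold to 24.2-fold in the pro-T line and 7.95-fold to 22.3-fold in the pro-B line, and 1 of the 6 met the CpG island criteria.

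**Figure D3:**
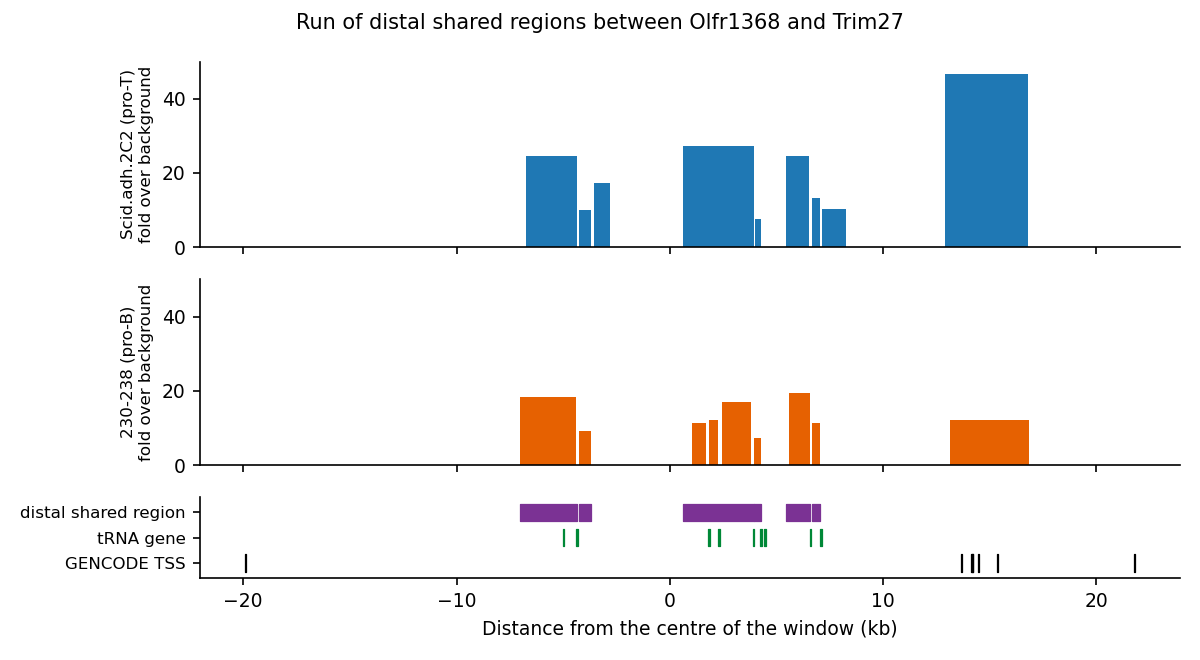
Peaks of the pro-T line (top) and the pro-B line (middle) along the run between Olfr1368 and Trim27, with the width of each bar giving the peak and its height the fold enrichment over background, against the distance from the centre of the window in kb. Marks below show the 6 distal shared regions, the tRNA genes and the GENCODE TSSs. Of the regions, 5 hold a tRNA gene, while the peaks at the right lie on annotated TSSs and are not part of the run.

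Part of the distal shared regions coincided with start sites that another annotation lists. A RefSeq transcript began inside 90 regions (7.04%), against 3.10% of distal regions in the pro-T line alone and 2.92% in the pro-B line alone. As merged peaks of both lists, distal shared regions were wider than either of these classes, and the part of width was not tested. Of the 90 nearest transcripts, 57 were predicted noncoding (XR), 18 predicted coding (XM), 8 curated noncoding (NR) and 7 curated coding (NM) models. Within 2500 bp of a RefSeq TSS lay 197 regions (15.4%), 16 of which also held a tRNA gene.

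The strongest of these after Zfp869 and Gm41421 were chr12:108757361-108758727, 4243 bp from a GENCODE TSS with Yy1, a zinc-finger transcription factor gene, as the nearest protein-coding gene, with 36.3-fold and 24.8-fold enrichment, and chr11:98294080-98295534, with 34.1-fold and 24.1-fold, near the kinase gene Cdk12. The RefSeq models that start in them are Gm33628 and Gm31194. Median enrichment of the 181 regions with a RefSeq TSS and no tRNA gene was 13.2 in the pro-T line and 12.6 in the pro-B line.

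CpG islands were more frequent at distal shared regions than at distal regions of 1 line and less frequent than at shared promoters. A region met the criteria when a 200-bp stretch within 500 bp of the summit had a GC content above 50% and an observed over expected CpG ratio above 0.6. This held for 564 of 1279 (44.1%, Wilson 95% interval 41.4 to 46.8), for 21.3% of distal regions in the pro-T line alone (19.7 to 23.0), for 17.3% in the pro-B line alone (16.2 to 18.5) and for 89.7% of shared promoters. Promoter regions marked in the pro-B line alone had a like share, 44.5% (42.8 to 46.2), and those in the pro-T line alone had 52.7% (50.3 to 55.1). Among distal regions of at least 10-fold enrichment the shares were 60.4%, 33.6% and 24.7%. The highest-ranking CpG island regions with no tRNA gene or RefSeq TSS, after those near Klrb1b and Tmem44, were chr7:73617241-73619765 near the chromatin remodeler gene Chd2, with 33.7-fold and 27.0-fold enrichment, and chr1:86486636-86487499 near Ptma, with 31.7-fold and 25.8-fold.

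The 606 regions with neither a tRNA gene, a RefSeq TSS nor a CpG island were weaker, with median enrichments of 9.73 and 10.4, and 504 of them (83.2%) lay below the median peak of both lists. Their median GC content was 46.9% and their median CpG ratio 0.267. They lay inside a gene in 311 cases (51.3%), against 32.3% of the CpG island group. The strongest was chr13:113012341-113014507, 18496 bp from Mcidas, a gene of multiciliated cell formation, with 45.7-fold and 25.4-fold enrichment. It was the highest of all distal shared regions in the pro-T line.

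**Figure D4:**
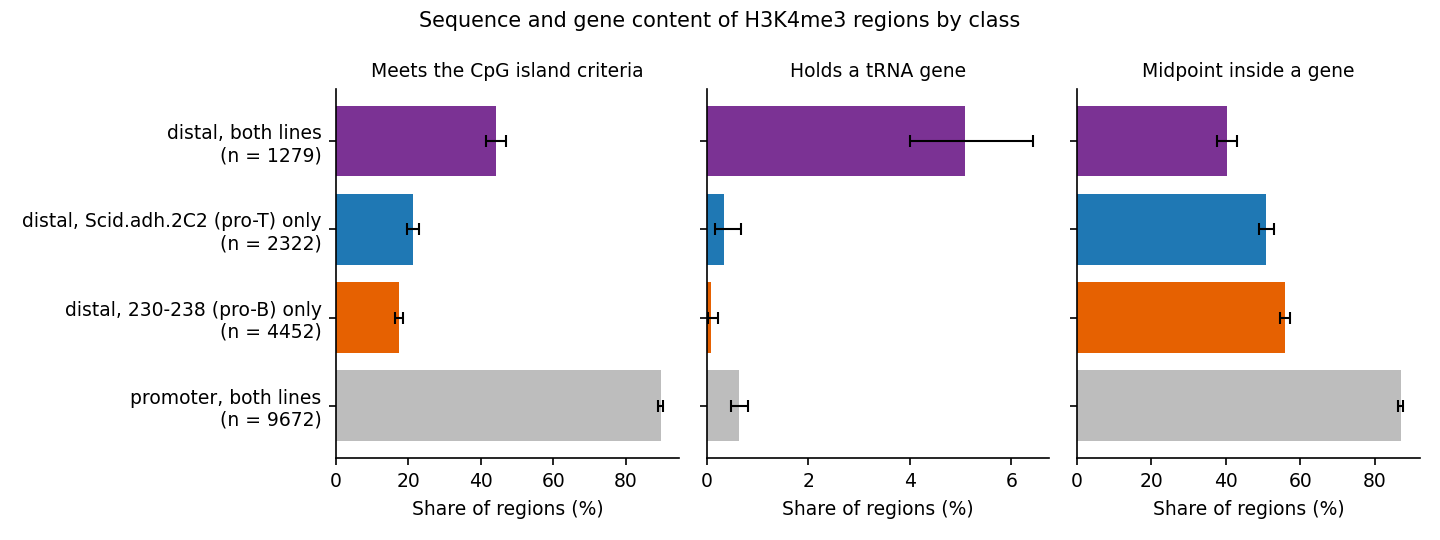
Share of regions in percent that met the CpG island criteria (left), held a tRNA gene (middle) or had their midpoint inside a gene (right), for distal shared regions, distal regions of each line alone and shared promoter regions. Bars start at 0 and error bars are Wilson 95% intervals, which cover counting error only. The distal shared regions had more CpG islands (44.1%) and tRNA genes (5.08%) and fewer midpoints in genes (40.2%) than either distal class of 1 line.

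Distal shared regions were more often intergenic than distal regions of 1 line. Their midpoint lay inside a gene in 514 cases (40.2%, 37.5 to 42.9), in an intron for 465 and in an exon for 49. In the pro-T line alone the share inside a gene was 50.8% (48.8 to 52.8) and in the pro-B line alone 55.9% (54.4 to 57.3). At 10-fold enrichment or more the shares were 34%, 45.8% and 52.3%.

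The nearest GENCODE TSS lay at a median of 9756 bp, against 13363 bp for distal regions of the pro-T line alone and 10460 bp for those of the pro-B line alone. A TSS lay within 5000 bp of 302 regions (23.6%), and 64 (5%) were over 50000 bp from any. Median enrichment was 12.1 and 12.6 for regions up to 5000 bp from a TSS and 9.77 and 10.6 for those beyond 50000 bp. The share with a CpG island was 50% in the first band and 32.8% in the last. Regions within 2500 bp of a promoter region numbered 96 (7.51%).

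At the limit of the rule, the member closest to a TSS was chrX:13240839-13244433, in an intron of 2010308F09Rik and 2512 bp from a TSS, with 29.6-fold and 21.9-fold enrichment. The shared region just inside the window, which is not a member, was chr6:124782225-124783022, 2498 bp from Lrrc23, with 15.2-fold and 11.05-fold. The member farthest from any TSS was chr17:62246535-62247593, 188464 bp away in intergenic sequence on the side of Efna5, an ephrin ligand gene, with 8.99-fold and 9.10-fold enrichment. The next 4 were introns of Wwox (169605 bp), of Ccdc178 (167033 bp) and of Trps1 (128352 bp) and an intergenic site on the side of Hace1 (136775 bp). None of these 5 met the CpG island criteria, held a tRNA gene or exceeded 11-fold in either line.

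**Figure D5:**
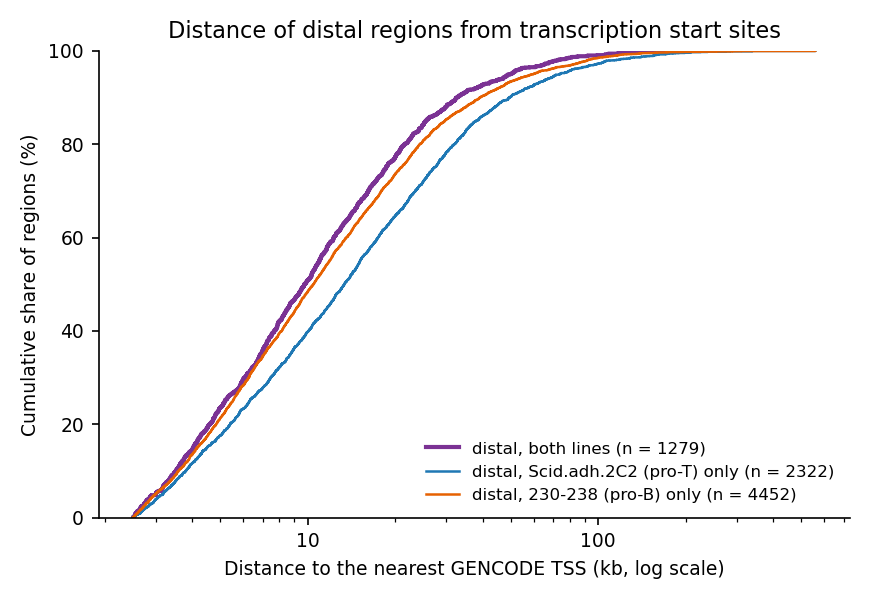
Cumulative share of distal regions in percent against the distance from the region to the nearest GENCODE TSS in kb (log scale), for regions of both lines, of the pro-T line alone and of the pro-B line alone. The curves start at the 2500 bp limit of the rule, and the medians were 9756, 13363 and 10460 bp.

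The 5 widest members included chr10:95260146-95267132 (6987 bp), in an intron of Cradd, an apoptosis adaptor gene, with 9.16-fold in the pro-T line and 33.0-fold in the pro-B line. Another, chr1:171032993-171039562 (6570 bp), near the Fc receptor gene Fcgr4, held 4 tRNA genes and had 21.7-fold and 22.1-fold enrichment. Further ones lay near the antiproliferative gene Btg2 (5973 bp, 19.9-fold and 11.6-fold) and the RNA-binding protein gene Cirbp (5556 bp, 28.8-fold and 21.7-fold).

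With all shared regions as the reference, distal shared regions were more often higher in the pro-B line than shared promoters were. They were higher in the pro-T line about as often. Ratios of fold enrichment were taken as the pro-T line over the pro-B line on the log2 scale and centred on the median of all shared regions, 0.27, and a region was counted when the centred ratio reached 2-fold. Of the 1279, 29 (2.27%, 1.58 to 3.24) were higher in the pro-T line and 172 (13.4%, 11.7 to 15.4) in the pro-B line. Among shared promoter regions the shares were 2.67% and 3.83%, and among all 10951 shared regions 2.62% and 4.95%. The peaks themselves chose the members, so these are descriptions.

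The excess toward the pro-B line moved with the level of enrichment. The median centred ratio was -0.26 for distal shared regions and 0.02 for shared promoters. When each region was instead centred on shared regions of like mean enrichment, in 20 bins, 67 distal shared regions (5.24%, 4.15 to 6.60) were higher in the pro-T line and 85 (6.65%, 5.41 to 8.14) in the pro-B line, against 3.21% and 3.34% of all shared regions. Shared promoter regions then had 2.94% and 2.91%. For distal shared regions both directions then lay above the share of all shared regions, and the intervals of the directions overlapped. Without centring, 75 (5.86%, 4.70 to 7.29) were higher in the pro-T line and 81 (6.33%, 5.12 to 7.80) in the pro-B line, so the excess toward the pro-B line depended on the centring. Over distal shared regions the correlation of log2 fold enrichment between the lines was 0.46 (Pearson) and 0.44 (Spearman, n = 1279 regions, which share libraries within a line and are not independent).

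The regions most skewed toward the pro-T line included an intron of Akap13, a kinase anchor protein gene, at chr7:75585895-75588978, with 24.5-fold against 4.77-fold in the pro-B line. The others were an intron of Gse1 at chr8:120334508-120337911 (28.4-fold against 8.20-fold), chr17:50469729-50471903 upstream of Plcl2 (26.0-fold against 7.58-fold), an intron of the sodium chloride cotransporter gene Slc12a3 at chr8:94362612-94363487 (22.7-fold against 6.66-fold) and chr12:54312257-54314003 toward Egln3, an oxygen-sensing prolyl hydroxylase gene (25.3-fold against 7.76-fold). The centred log2 ratios ran from 1.44 at Egln3 to 2.09 at Akap13, and they stayed above 1 after centring on regions of like enrichment. Of these 5, the region at Egln3 met the CpG island criteria.

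The regions most skewed toward the pro-B line included an intron of Espnl at chr1:91324966-91326946, with 5.66-fold in the pro-T line and 25.7-fold in the pro-B line, and chr11:19919280-19921029 upstream of Spred2, an inhibitor of Ras signaling (5.60-fold and 23.0-fold). Among the 5 most skewed were also chr3:104674875-104676275 on the side of the lactate transporter gene Slc16a1 (6.53-fold and 24.6-fold) and chr1:180313671-180315109 upstream of Itpkb, an inositol phosphate kinase gene (3.93-fold and 14.4-fold). Their centred log2 ratios ran from -2.45 at Espnl to -2.14 at Itpkb. All 10 skewed regions lacked a tRNA gene, as did most distal shared regions, of which 5.08% held one. Of the 65 regions with a tRNA gene, 1 was higher in the pro-T line and 3 in the pro-B line. These counts are small. The shares were 2.27% and 13.4% of all distal shared regions and 2.62% and 4.95% of all shared regions.

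The nearest protein-coding gene was used to describe gene groups, without implying that a region acts on it. In all, 1034 of 21924 protein-coding genes (4.72%) were the nearest to at least 1 distal shared region, 863 of them to 1 and 171 to 2 or more. How much sequence surrounds each gene was not accounted for. Except for the study's own lists, the gene lists were counted for distal shared regions only. Genes of blood cell transcription factors were nearest more often, 12 of 34 (35.3%, 21.5 to 52.1). Their 17 regions included sites near the E-protein gene Tcf12 (21.8-fold in the pro-T line and 15.5-fold in the pro-B line), in an intron of Elf1 (15.8-fold and 14.1-fold), on the side of Ets1 (14.4-fold in both) and beyond Runx3 (13.7-fold and 15.3-fold). The list also held Id2, Irf4, Bcl6, Tcf3, Lmo2, Foxo1, Fli1 and Runx1.

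Genes of proliferation and survival were nearest in 6 of 19 cases (31.6%, 15.4 to 54.0), among them the cyclin genes Ccne1, Ccnd3 and Ccnd2 and Bcl2l11, which encodes the death-promoting protein BIM. The region of highest rank reached 16.6-fold and 12.1-fold near Ccne1 and 10.4-fold and 12.3-fold in an intron of Ccnd3. Bcl2l11 was the nearest to 3 regions, and that at chr2:128203909-128206231 was 17.3-fold in the pro-T line and 6.16-fold in the pro-B line.

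Of 30 lymphocyte signaling and trafficking genes, 6 (20%, 9.51 to 37.3) were the nearest gene of 14 regions. In 4 cases each, the nearest gene was Ptprc, which encodes the phosphatase CD45, or Cd47, the gene of a membrane protein that restrains phagocytosis, and in 3 the chemokine receptor gene Cxcr4. The highest-ranking of those nearest to Ptprc, chr1:137806272-137806904, lay 308570 bp from its TSS, with 17.9-fold and 19.9-fold enrichment. In an intron of Ptprc, chr1:138134203-138136530 had 10.5-fold and 16.4-fold enrichment and chr1:138136700-138138583 had 9.27-fold and 7.41-fold. In introns of Cd47, chr16:49817956-49819438 had 14.1-fold and 14.5-fold and chr16:49838739-49840923 had 14.7-fold and 9.13-fold. The region nearest to Cxcr4 that ranked highest, 239610 bp from its TSS, had 13.2-fold and 11.4-fold, and an intron of the cytokine receptor gene Flt3 had 14.6-fold and 12.6-fold.

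Of 24 genes of the T lineage 5 (20.8%, 9.24 to 40.5) were nearest to a distal shared region, against 1 of 24 of the B lineage (4.17%, 0.739 to 20.2). The T-lineage genes included Lef1, which the study's own list places with the B lineage, Lat, Tcf7 and Tox. Regions upstream of Lef1 reached 20.3-fold in the pro-T line and 18.2-fold in the pro-B line, and the higher of the pair upstream of Tcf7, which encodes TCF-1, 7.64-fold and 7.36-fold. The B-lineage gene was Dntt, which encodes terminal deoxynucleotidyl transferase, with 11.9-fold and 22.1-fold. The intervals of both lists overlapped each other.

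Chromatin regulator genes were nearest in 4 of 24 cases (16.7%, 6.68 to 35.9). These were Ezh2, the Polycomb methyltransferase gene, with 18.8-fold and 26.3-fold at a CpG island region that holds the RefSeq start of Gm40371, then Ctcf, Chd4 and Ep300 with 6.43-fold to 16.6-fold in the pro-T line and 6.72-fold to 10.9-fold in the pro-B line. The genes nearest to the most members were Bcor, a transcriptional corepressor gene of the X chromosome, and Trim27, with 7 each. They were singled out after their counts were seen. Of the 7 regions of Bcor, 6 met the CpG island criteria and none held a tRNA gene, whereas all 7 of Trim27 held at least 1.

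The study's own lists of genes expressed in T-cell or B-cell progenitors gave a like picture for both lineages. A distal shared region was nearest to 21 of 208 T-lineage genes (10.1%, 6.70 to 14.9) and to 23 of 225 B-lineage genes (10.2%, 6.91 to 14.9). Distal regions of the pro-T line alone were nearest to 30.3% of the T-lineage and 16.4% of the B-lineage genes, and those of the pro-B line alone to 21.6% and 41.8%. Over all protein-coding genes the shares were 4.72% for distal shared regions, 6.94% for the pro-T line alone and 12.1% for the pro-B line alone, so both lists lay above them in each class. For distal shared regions the intervals of the lists overlapped, whereas distal regions of 1 line differed in the direction of their lineage by intervals that did not overlap for the pro-B line and for the pro-T line.

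A total of 12 short sequence words was searched at the summits. Taken without intervals, most had shares at distal shared regions between those of shared promoters and of distal regions of 1 line. The GC box, RUNX and GATA words were among them, whereas the IRF, E-box and EBF1 words did not lie apart from both distal classes of 1 line. Both strands of the 501 bp at the summit were searched. The GC box GGGCGG, a word bound by SP and KLF factors, occurred in 25.5% of distal shared regions (23.2 to 27.9), 15.9% of distal regions in the pro-T line alone, 11.9% in the pro-B line alone, 50% of shared promoters and 33.8% of all 22625 merged regions. The RUNX word TGTGGT occurred in 34.9% (32.3 to 37.5), 42.3%, 39.8%, 23.2% and 31.1% in the same order, and the GATA word AGATAA in 21.1% (18.96 to 23.4), 28.3%, 24.4%, 14.7% and 19.4%. The IRF word GAAANNGAA occurred in 23.9% (21.7 to 26.3), 22.8%, 23.5%, 12.2% and 17.2%. The E-box CAGCTG occurred in 28% (25.6 to 30.5), 31.3%, 26.6%, 22.6% and 25.8%, and the EBF1 word CCCNNGGG in 17% (15.1 to 19.2), 12.1%, 18.8%, 26.5% and 22.2%. Among the other 6 words, the share of distal shared regions was 43.2% for NF-Y (CCAAT), 21.3% for the TATA box (TATAAA), 3.75% for CTCF (CAGGGGGC), 2.74% for YY1 (AAGATGGC) and 2.27% each for ETS (CCGGAAGT) and NRF1 (GCGCATGC), against 43.4%, 19.1%, 3.46%, 3.28%, 2.57% and 1.98% of all merged regions. Taken without intervals, these 6 words also lay between shared promoters and both distal classes of 1 line. For NF-Y (40.5 to 46.0), YY1 (1.97 to 3.78), ETS and NRF1 (1.58 to 3.24 each), the interval contained the share of at least 1 of these distal classes. For CTCF (2.84 to 4.94) it contained that of shared promoters. Only the TATA box (19.1 to 23.6) lay apart by its interval from all 3 classes. The TATA box occurred in 24.8% of distal regions in the pro-T line alone, 26.5% in the pro-B line alone and 13.5% of shared promoters. For CTCF these shares were 2.07%, 2.38% and 4.09%.

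Base composition moved with these shares, as median GC content was 49.3% in distal shared regions, 47.3% and 46.7% in distal regions of 1 line and 55.9% in shared promoters, and its part in them was not tested. Within the distal shared regions, the RUNX word occurred in 39.1% of those with no tRNA gene, RefSeq TSS or CpG island and in 21.5% of those with a tRNA gene. The IRF word occurred in 31.2% and 18.5%. The GC box occurred in 41.5% of the CpG island group and in 16.9% of the regions with a tRNA gene, although most of the latter met the CpG island criteria too.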

How the data were processed

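H3K4me3 ChIP-seq was done in Scid.adh.2C2 pro-T cells and an Abelson-transformed pro-B line. The authors trimmed reads with Trim Galore (0.6.7), mapped them to mm10 (GRCm38) with Bowtie2 (2.4.4), called narrow peaks with MACS2 (2.2.7.1) at a q-value of 0.05 against the input and kept the optimal set at an irreproducible discovery rate (IDR) of 0.05 between replicates. How reads with several matches were treated is not given in the sources used here. The deposited lists hold an IDR score, a fold enrichment ratio over local background and −log10 p and q-values per peak, each 1 value for both replicates combined, and the 2 columns of q-values were not used. The score rises to 1000 as the IDR falls.

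Distances were measured to TSSs of GENCODE M21, and tRNA genes and further TSSs came from RefSeq on GRCm38.p6. Python (3.11.15), numpy (2.4.6) and pandas (2.3.3) were used, and the scripts were tested on simulated data. Regions were named by rank in both lists, ratio, distance, width, runs, closeness to the window limit and, per gene list, the highest-ranking region of at most 4 genes. Regions of highest rank within each of the 4 groups and all regions of some listed genes were added after the values were seen. The grouping by tRNA genes, RefSeq TSSs and CpG islands and the B-box search were also chosen after the data were seen. The members and gene lists were chosen with earlier results of these data known. The alternatives covered the TSS window and annotation, peak thresholds, overlap and merging, CpG island criteria and the centring of ratios. No test over regions was made, since neighboring regions are not replicates. Wilson 95% intervals cover counting error only. Results for a few genes and the regions next to them are not reported here.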

Additional observations from a re-analysis of the deposited data

How the results depend on the processing

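The lists hold no values per replicate, so leaving out a replicate could not be run. No paired analysis was possible because each deposited list combines both replicates of a line. Depth is unknown and sets which weak peaks were called in both lines. Keeping only peaks of at least 10-fold enrichment left 609 distal shared regions, with 60.4% meeting the CpG island criteria, 34% inside a gene, 9.36% holding a tRNA gene, 0.657% higher in the pro-T line and 4.93% higher in the pro-B line. Under the other alternatives tried, the number of regions stayed within 1.5 times 1279 (977 to 1712).

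The share with a CpG island was 50.4% with TSSs of protein-coding genes only, 48.9% with as many peaks in both lists, 22.1% with a stretch of 500 bp and 27.8% with a GC content over 55% and a ratio over 0.65. The share inside a gene was 43.8% and 37.4% with windows of 1000 and 5000 bp, 46.6% with protein-coding TSSs and 33.8% for bodies of protein-coding genes. The share higher in the pro-T line was 0.911% with equal lists, 6.96% by a percentile difference over 25 points, 5.86% without centring and 5.24% centred on regions of like enrichment. The share higher in the pro-B line was 17%, 19%, 6.33% and 6.65% in the same order. Without centring and with centring on regions of like enrichment, the intervals of the directions overlapped, so the excess toward the pro-B line depended on the centring. Adding RefSeq TSSs to the rule left 1082 regions, and leaving out regions over 50% repeat-masked left 1239. Both of these, the like-enrichment centring and all alternatives for tRNA genes were chosen after seeing the data.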

Other observations

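Of the 1279 distal shared regions, 23 (1.80%, Wilson 95% interval 1.2 to 2.68) overlapped a regulatory feature such as an enhancer or hypersensitive site in RefSeq, against 0.689% of distal regions in the pro-T line alone and 0.651% in the pro-B line alone. As merged peaks of both lists, the distal shared regions were also wider than these classes, and the part of width was not tested. Peaks of the pro-B line covered more bases than those of the pro-T line in 817 regions (63.9%) and in 72.5% of shared promoter regions. Among regions with a tRNA gene this was so in 20 of 65 (30.8%). Chromosome X held 40 members (7.02% of its merged regions), chromosome 11 held 119 (6.30%) and chromosome 7 held 67 (4.45%), and the 7 merged regions of chromosome Y included none.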
